A study of Mus musculus with 12 samples.

Results

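Transcript levels of 36 genes of DNA replication were followed in the lung and liver of pregnant and virgin mice. The genes were picked by symbol, for their roles in copying the genome, at a time when earlier results of these data were known. Each was read from 1 probe set, the brightest of the gene by its mean over the 12 arrays. All 36 were among the 18193 genes tested. The 4 groups were lung of pregnant females, lung of virgin females, liver of pregnant females and liver of virgin females. Each group had 3 Affymetrix arrays, single-colour chips on which a gene is read by 1 or more sets of short probes, and each array carried equal amounts of RNA from 2 pooled mice. All mice were NOD/SCID females, a strain without mature T and B lymphocytes, between 8 and 10 weeks old when the experiments began, and the pregnant ones were at day 16 of gestation. The groups therefore differed in tissue and pregnancy and shared strain, sex and starting age. Values are log2 units throughout, computed by the authors with RMA, and p-values measure the spread between pools, with the number of arrays limiting the precision.

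Replication begins when the origin recognition complex, with the loading factors Cdc6 and Cdt1, places the Mcm2 to Mcm7 helicase on DNA, a step called licensing, which geminin (Gmnn) blocks by binding Cdt1. At the entry into S phase, cyclin E and its kinase help to start the process. Cdc45, the GINS complex and Mcm10 switch the helicase on, DNA polymerases copy the strands with the PCNA clamp, and enzymes of nucleotide supply provide the building blocks. Many of these genes are transcribed under E2F factors, which bind close to their start sites and are held back by the retinoblastoma protein in resting cells. Adult lung and liver consist mainly of resting cells, and in mice the maternal liver enlarges during gestation.

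The tissues carried their own markers. All 8 hepatocyte markers were lower in virgin lung than in virgin liver, all 8 lung epithelium markers were higher, and no marker of either list was called for pregnancy in either tissue. The 2 liver arrays of pool number 3, 1 pregnant and 1 virgin, lacked signal for the labelling controls (5.20 and 4.99, against 11.93 to 12.41 on the other arrays), so liver values are also given for these arrays apart. A gene was called at an adjusted p under 0.05 in limma, adjusted over all 18193 genes. The median log2 value of all probe sets was 4.53. The mean of Tyms, thymidylate synthase, lay between 2.52 and 2.72 in the 4 groups, near the bottom of the scale, and its lack of a call says little.

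Members whose start regions hold E2F motifs are shown first, because this is a feature that part of the genes share. It is not independent of their choice, since many genes with roles in replication are known to be transcribed under E2F factors. In RefSeq promoters of the mouse build GRCm38.p6, each covering 250 bases before to 50 after a start, 29 of the 36 genes matched with 34 promoters. The sequences TTTCCCGC, TTTCGCGC, TTTGCCGC and TTTGGCGC were searched on both strands, and matches may overlap. At least 1 of them stood in 12 of the 34 promoters (35.3%), against 744 of all 32851 promoters (2.26%). By gene, these were 12 of 29 members (41.4%), against 2.6% of 27025 genes. Stretches of 9 of these promoters follow, written 5′ to 3′ on the strand of the gene, with the motif letters in capitals. Cdc6 is given in full up to its start, since it changed most in lung, Mcm5 and Mcm6 because their matches overlap, and the others to show where a match stands. The stretches of Mcm7 and Rfc3 leave out a second match of the same promoter.
Cdc6, chr11:98907901-98908150, plus strand: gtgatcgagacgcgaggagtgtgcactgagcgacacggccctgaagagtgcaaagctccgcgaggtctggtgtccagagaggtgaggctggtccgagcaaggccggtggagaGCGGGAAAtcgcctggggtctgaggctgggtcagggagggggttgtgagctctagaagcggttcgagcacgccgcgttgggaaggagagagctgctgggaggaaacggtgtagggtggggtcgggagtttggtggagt
Cdt1, chr8:122568036-122568064, plus strand: ggaactaccttTTTGGCGCcatggcgcaa
Orc1, chr4:108579394-108579453, plus strand: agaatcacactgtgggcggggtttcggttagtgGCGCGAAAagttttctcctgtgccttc
Mcm5, chr8:75109332-75109391, plus strand: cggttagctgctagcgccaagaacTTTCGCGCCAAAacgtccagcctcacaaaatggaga
Mcm6, chr1:128359736-128359825, minus strand: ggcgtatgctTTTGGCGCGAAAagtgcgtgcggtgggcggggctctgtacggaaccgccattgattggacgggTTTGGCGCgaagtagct
Mcm7, chr5:138172015-138172074, minus strand: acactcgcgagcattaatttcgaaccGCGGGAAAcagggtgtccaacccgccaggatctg
Pola1, chrX:93632260-93632319, minus strand: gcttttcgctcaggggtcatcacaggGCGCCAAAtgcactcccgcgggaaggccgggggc
Rfc3, chr5:151651209-151651268, minus strand: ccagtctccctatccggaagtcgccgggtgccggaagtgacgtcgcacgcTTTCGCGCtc
Uhrf1, chr17:56304102-56304161, plus strand: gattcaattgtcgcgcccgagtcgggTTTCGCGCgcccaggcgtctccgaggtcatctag

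Positions count from the start, with negative numbers before it. In Cdc6 the match lay on the opposite strand at -138 to -131. In Mcm5 a pair of matches on opposite strands overlapped, from -153 to -142. Mcm6 held 3 matches, of which the pair farther from the start overlapped. In Cdt1 the match lay at 33 to 40. The matches left out of the stretches above lay at 17 to 24 in Mcm7 and at 1 to 8 in Rfc3. Another promoter of Mcm7, and another of Uhrf1, held no match. The other members with a match were Mcm3, Pold1 and Lig1. No match was found in the windows of Tk1, Mcm10 or Ccne1, which says only that these letters are not there. Pole, Gins2, Mcm4, Rfc2, Gins1, Ccne2 and Gmnn were not in the promoter table. The CCAAT box, searched as CCAAT on both strands, stood in 18 of the 34 promoters (52.9%), against 37.4% of all promoters. The cell cycle homology region TTTGAA, an element of many mitosis genes, stood in 3 of 34 (8.82%), against 17.9% of all.

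**Figure D1:**
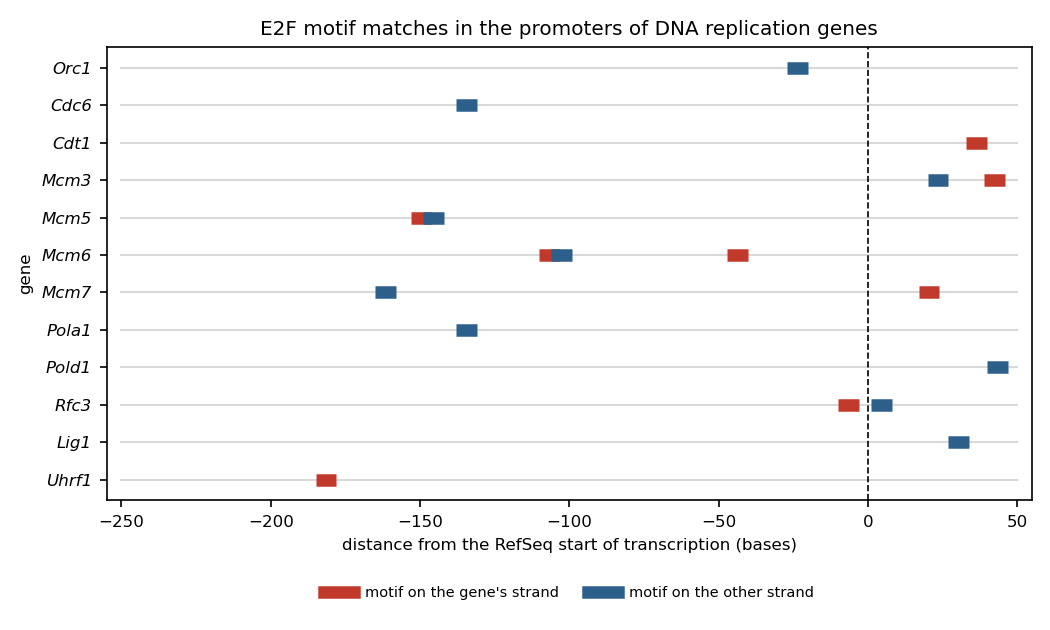
Positions of E2F motif matches in the 12 member genes that hold one, in bases from the RefSeq start (dashed line), with negative numbers before it; red marks the strand of the gene, blue the opposite strand, and grey lines the window from 250 bases before to 50 after the start. Matches lie both before and after the start, and Mcm5 and Mcm6 hold overlapping ones.

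The first comparison asked how these genes stood in the lung of pregnant mice. Cdc6, the helicase loader, fell 2.35-fold, Tk1, thymidine kinase of the salvage pathway, fell 1.96-fold, and Gins2, a subunit of the GINS complex, fell 1.41-fold. These 3 of 36 genes were called, all lower, against 0.594% of all genes tested (0.335% called lower and 0.258% higher). The other 33 did not pass, and 35 of the 36 estimates were below 0. The median log2 change of the 36 was -0.39, from -1.23 to 0.21, against -0.01 over all genes, of which 52.5% were below 0. In 24 members every pregnant array lay below every virgin array, as did 10.4% of all genes, and in 0 members did they all lie above, as they did in 8.06% of all genes. In whole tissue, fewer cells of a type and less RNA per cell cannot be told apart.

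**Figure D2:**
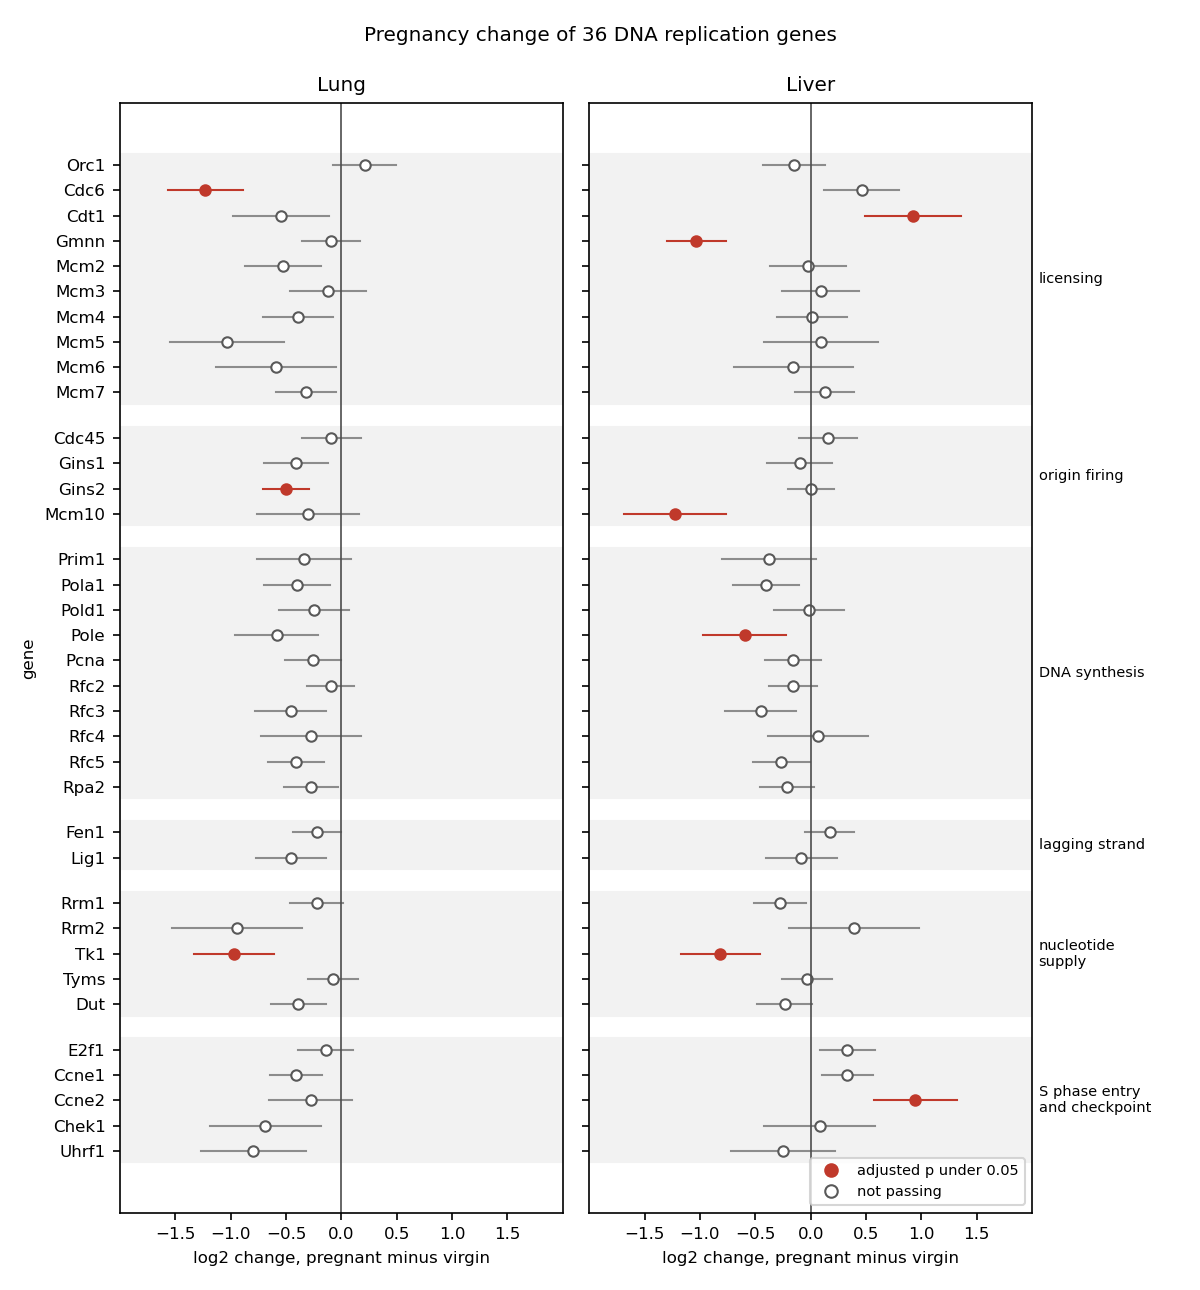
Log2 change with pregnancy (points) and 95% interval (lines) of the 36 genes in lung (left) and liver (right), grouped by role, with filled red points at an adjusted p under 0.05. In lung every estimate except that of Orc1 is below 0, while in liver 15 of 36 are above 0.

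Among the licensing genes, 9 of 10 estimates in lung were below 0 and the median was -0.46. Cdc6 read 3.69, 4.33 and 3.89 on the pregnant lung arrays, and 5.02, 5.48 and 5.10 on the virgin ones. Every pregnant value was thus below every virgin value, and the mean of the pregnant group lay below the median of all probe sets. The group means were 3.97 ± 0.32 in pregnant lung and 5.20 ± 0.25 in virgin lung (SD, n = 3 each), a log2 change of -1.23 with a standard error of 0.16 (limma, adjusted p = 0.00403). The call for Cdc6 held in all 6 fits that left out 1 lung array, with a highest adjusted p of 0.0264 without virgin lung pool 2.

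Mcm5, a helicase subunit whose promoter holds the overlapping motif pair, read 6.92, 7.12 and 7.11 in pregnant lung and 7.83, 8.28 and 8.14 in virgin lung. The groups lay well apart, with little spread among the pregnant pools. Its log2 change of -1.03 (SE 0.24) nevertheless did not pass (adjusted p = 0.0777) in the fit that shares 1 spread over lung and liver, where its virgin liver arrays had an SD of 0.62. Fitted on the 6 lung arrays alone, the same change passed (adjusted p = 0.0156). A second probe set of Mcm5 changed by -1.16 in lung and was called in a fit of all probe sets (adjusted p = 0.0335). The other subunits did not pass either, with log2 changes of -0.59 for Mcm6, -0.53 for Mcm2, -0.39 for Mcm4, -0.32 for Mcm7 and -0.12 for Mcm3. In Mcm2, Mcm4, Mcm6 and Mcm7 every pregnant lung value was below every virgin one, whereas in Mcm3 the groups overlapped on the chosen probe set. Further Mcm3 probe sets changed by -0.48 and -0.49 in lung, not called in the fit of all probe sets (adjusted p = 0.354 and 0.269). The dimmest ones changed by 0.08 and -0.11.

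Cdt1, the partner of Cdc6 in helicase loading, read 7.15, 7.58 and 7.30 in pregnant lung and 7.68, 8.11 and 7.87 in virgin lung. The groups did not overlap, although the highest pregnant pool came close to the lowest virgin one. The log2 change of -0.55 had a 95% interval of -0.98 to -0.11 and did not pass (adjusted p = 0.33). Gmnn, the inhibitor of Cdt1, averaged 6.98 ± 0.07 in pregnant lung and 7.07 ± 0.19 in virgin lung (SD, n = 3 each), and the groups overlapped. Orc1, the largest subunit of the origin recognition complex, was the only member with an estimate above 0 in lung, 0.21, with an interval of -0.07 to 0.49. Its promoter holds an E2F match too.

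Among the 4 genes of origin firing, Gins2 read 5.32, 5.32 and 5.05 in pregnant lung and 5.72, 5.78 and 5.69 in virgin lung. Its virgin pools were nearly equal and all stood above the pregnant ones. The log2 change was -0.50 (SE 0.10, adjusted p = 0.0351), but the call was lost in each of the 6 fits that left out 1 lung array. Its adjusted p was then 0.0694, 0.068 and 0.102 without pregnant pools 1, 2 and 3, and 0.0914, 0.154 and 0.0992 without virgin pools 1, 2 and 3. Gins1, of the same complex, changed by -0.41 with groups that did not overlap (adjusted p = 0.249). Mcm10 and Cdc45 changed by -0.30 and -0.09, and both overlapped.

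None of the 10 genes of DNA synthesis was called in lung by limma. All 10 estimates were below 0 (median -0.31), as were 52.5% of all genes. An unadjusted p under 0.05 was found for 6 of the 10, and for 1795 of all 18193 genes. Pole, the catalytic subunit of DNA polymerase epsilon of the leading strand, averaged 4.17 ± 0.17 in pregnant lung and 4.75 ± 0.10 in virgin lung (SD, n = 3 each). The groups did not overlap, and the log2 change was -0.58 (SE 0.17, adjusted p = 0.198). Rfc5, a subunit of the clamp loader, changed by -0.41 with groups apart (adjusted p = 0.188), and Rfc3 by -0.46. Pcna, the sliding clamp, averaged 10.91 ± 0.06 in pregnant lung and 11.17 ± 0.10 in virgin lung (SD, n = 3 each). These groups did not overlap, yet the change of -0.26 had an interval that reached -0.00. Of the lagging strand enzymes, Lig1, the ligase that joins Okazaki fragments, changed by -0.46 (adjusted p = 0.24) and Fen1, the flap nuclease, by -0.22 (adjusted p = 0.511).

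In nucleotide supply all 5 estimates in lung were below 0. Tk1 read 3.93, 4.48 and 4.63 in pregnant lung and 5.10, 5.52 and 5.33 in virgin lung. The groups did not overlap, and the pregnant mean of 4.35 fell below the median of all probe sets. The log2 change was -0.97 (SE 0.17, adjusted p = 0.0214), and the call was lost without virgin lung pool 2 (adjusted p = 0.108) or virgin lung pool 3 (adjusted p = 0.084). It was also lost with the 6 lung arrays alone (adjusted p = 0.0608). Rrm2, the inducible subunit of ribonucleotide reductase, averaged 5.46 ± 0.24 in pregnant lung and 6.40 ± 0.32 in virgin lung (SD, n = 3 each), with no overlap. That log2 change of -0.94 (SE 0.27) did not pass (adjusted p = 0.183). Its partner subunit Rrm1 changed by -0.22, and Dut, which removes dUTP, by -0.39 (adjusted p = 0.198).

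No gene of S phase entry and checkpoint was called in lung. Uhrf1, which helps to copy DNA methylation after replication, read 3.75, 3.55 and 3.81 in pregnant lung and 4.23, 4.68 and 4.59 in virgin lung. The groups did not overlap, both group means were under the median of all probe sets, and the log2 change was -0.79 (SE 0.22, adjusted p = 0.158), or adjusted p = 0.0426 with lung arrays alone. Ccne1, which encodes cyclin E1, changed by -0.41 (SE 0.11, adjusted p = 0.136), with every pregnant value lower, while its second probe set changed by 0.08 in lung (adjusted p = 0.968 in the fit of all probe sets). Chek1, the checkpoint kinase, changed by -0.69 (adjusted p = 0.266), Ccne2 by -0.28 and E2f1 by -0.14. Dimmer probe sets of Chek1 changed by -0.05, -0.20, 0.01 and -0.33 in lung, none called in the fit of all probe sets. A second probe set of Uhrf1 changed by -0.16 in lung (adjusted p = 0.906 in that fit).

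**Figure D3:**
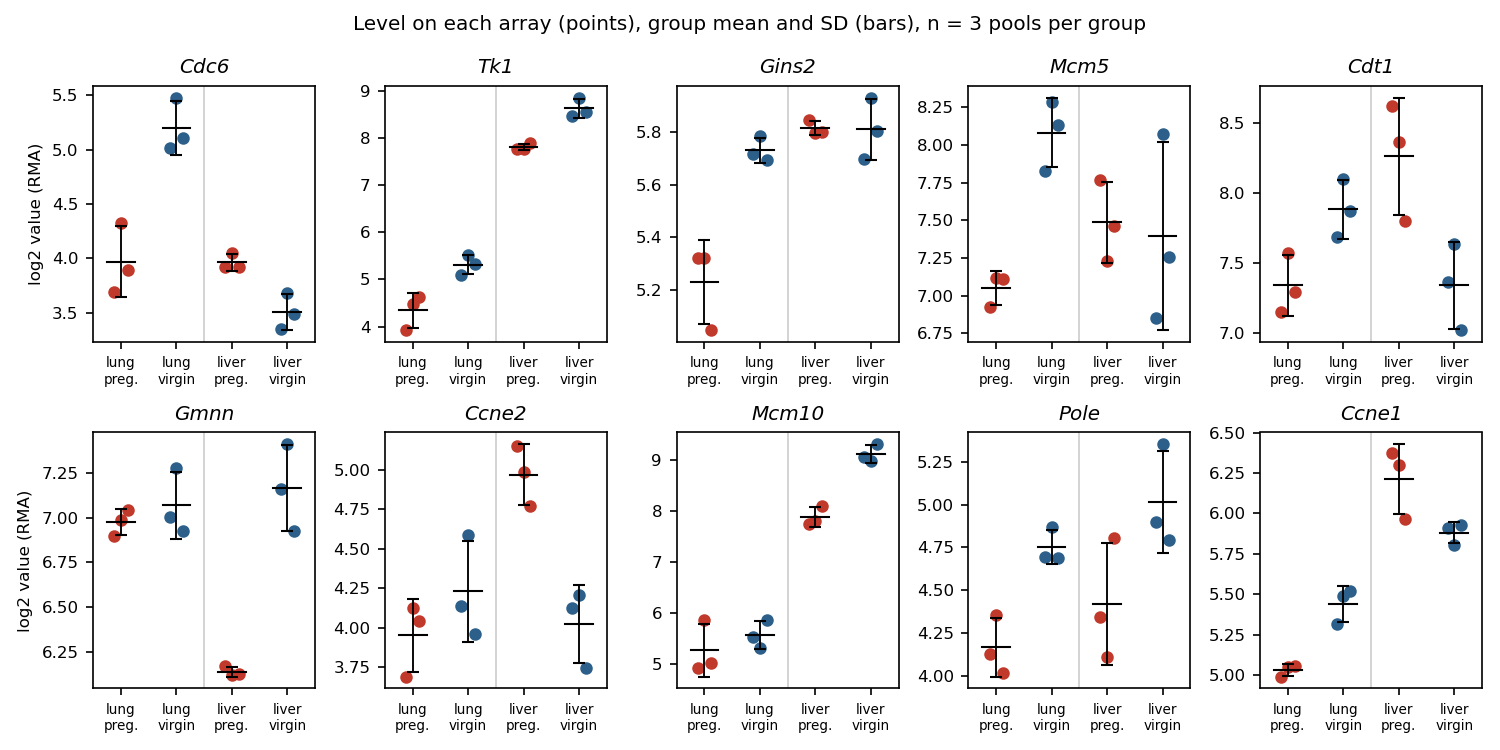
Log2 value on each array (points, red for pregnant and blue for virgin), with group mean and SD (bars, n = 3 pools per group), for 10 genes, each on an axis of its own. Cdc6, Tk1, Gins2 and Mcm5 are lower in pregnant than in virgin lung without overlap, whereas in liver Cdt1 and Ccne2 are higher and Gmnn, Mcm10 and Tk1 lower.

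Related genes gave few calls in lung. Of 48 further replication genes measured, 0 were called in lung by limma, against 0.594% of all genes. An unadjusted p under 0.05 was found for 12 of the 48, and for 1795 of all 18193 genes. The median log2 change of the 48 was -0.12, with 38 estimates below 0, against 52.5% of all genes. The smallest p-values belonged to Rnaseh2b, a subunit of ribonuclease H2, with -0.49 (adjusted p = 0.0599), and Rpa1, of the single-strand binding protein, with -0.37 (adjusted p = 0.0667). Of 33 other regulators of the G1/S step, 1 fell (0.335% of all genes did), Cdkn2c, an inhibitor of Cdk4 and Cdk6 (-0.54, adjusted p = 0.0349). Of 24 mitosis genes 22 had an estimate below 0 (median -0.42), against 52.5% of all genes. Only 1 of the 24 was called, Nusap1, lower, against 0.335% of all genes called lower. Leaving out any 1 of the 6 lung arrays ended the calls of Cdkn2c (adjusted p up to 0.163, without virgin lung pool 2) and Nusap1 (up to 0.204, without the same pool).

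No blood cell marker was called in lung. Of 8 erythroid markers 6 had an estimate below 0 and 0 were called, and their mean ranged from 5.65 to 5.86 on pregnant lung arrays and from 5.90 to 5.99 on virgin ones. All 5 natural killer cell markers had an estimate below 0, and their mean ranged from 6.02 to 6.47 in pregnant lung and from 6.37 to 6.57 in virgin lung. The 8 lymphocyte markers lay between 4.16 and 4.27 in pregnant lung and between 4.26 and 4.35 in virgin lung, with 5 of 8 under the median of all probe sets in each group. Of the neutrophil precursor markers, 0 of 8 were called, and their mean was 6.33 on pregnant lung pool 2 against 4.99 to 5.23 on the other lung arrays. The part of these cells in the lower replication values was not tested. The other marker lists (macrophage, endothelium, fibroblast, bile duct, pancreas) had no call in lung. Called higher were 3 of 4 decidua and trophoblast markers, Prl8a2, Prl7b1 and Prl2a1, against 0.258% of all genes. Of these Prl8a2 passed in all 6 fits without 1 lung array, Prl7b1 in 2 and Prl2a1 in 0. The mean of the 4 markers was 2.88 to 2.97 on virgin lung arrays and 4.03 to 4.59 on pregnant ones. In virgin lung all 4 were under the median of all probe sets, and in pregnant lung 2 were.

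The second comparison asked the same of the liver, where the members split. Cdt1 rose 1.90-fold and Ccne2, which encodes cyclin E2, rose 1.92-fold, whereas Mcm10 fell 2.34-fold, Gmnn 2.04-fold, Tk1 1.76-fold and Pole 1.51-fold. These 6 of 36 genes were called, against 13.6% of all genes tested, so the share of members called was close to that of all genes. Called higher were 2 of 36, against 6.02% of all genes, and called lower 4 of 36, against 7.62%. The median log2 change was -0.06, against -0.01 over all genes, and 21 of 36 estimates were below 0, as were 51.7% of all genes. The arrays of the groups did not overlap in 6 members on the higher side, as in 12.7% of all genes, and in 6 on the lower side, as in 15.3%.

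Within licensing, the inhibitor and its target moved in opposite directions. Cdt1 read 8.62, 8.37 and 7.80 in pregnant liver and 7.36, 7.64 and 7.02 in virgin liver. All 3 pregnant pools stood above the virgin ones, with pregnant pool 3 close to virgin pool 2. The log2 change was 0.92 (SE 0.20, adjusted p = 0.00742), 0.99 in pools 1 and 2, and 0.78 in pool 3, and it passed in all 6 fits without 1 liver array, with a highest adjusted p of 0.0376. A second Cdt1 probe set changed by 0.60 in the same direction (adjusted p = 0.0503 in the fit of all probe sets), and another, at the bottom of the scale, by -0.04.

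Gmnn read 6.17, 6.12 and 6.12 in pregnant liver and 7.16, 7.41 and 6.93 in virgin liver. The pregnant pools were nearly equal and far below each virgin pool. This gave a log2 change of -1.03 (SE 0.12, adjusted p = 6.99e-05), -1.15 in pools 1 and 2, and -0.80 in pool 3. Cdc6 read 3.92, 4.05 and 3.92 in pregnant liver and 3.35, 3.68 and 3.48 in virgin liver, higher in every pregnant pool but all below the median of all probe sets. Its log2 change of 0.46 did not pass (SE 0.16, adjusted p = 0.0697), and it passed with the 6 liver arrays alone (adjusted p = 0.0387).

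The helicase subunits gave no call in liver and overlapped in every case. Their log2 changes on the chosen probe sets ran between -0.16 for Mcm6 and 0.13 for Mcm7. Further Mcm3 probe sets changed by -0.42, -0.33, -0.15 and -0.00, and another of Mcm6 by -0.33, none called in the fit of all probe sets. The virgin liver pools scattered widely, with an SD of 0.64 for Mcm6 and 0.62 for Mcm5. The interval for Mcm5, -0.42 to 0.61, leaves room for changes of either sign. Orc1 changed by -0.15 with overlapping groups.

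Of the firing factors, Mcm10, which helps to activate the helicase, read 7.74, 7.81 and 8.10 in pregnant liver and 9.05, 8.97 and 9.31 in virgin liver. The groups lay far apart, and Mcm10 had a log2 change of -1.22 (SE 0.21, adjusted p = 0.00152), with -1.23 in pools 1 and 2 and -1.20 in pool 3. In the fit of all probe sets a second probe set of Mcm10 fell by 0.52 (adjusted p = 0.034) and another changed by -0.18 (adjusted p = 0.305), so the size rests on the brightest one. Gins2 changed by 0.00 with an interval of -0.20 to 0.21, Gins1 by -0.10 and Cdc45 by 0.16.

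In DNA synthesis 9 of 10 estimates in liver were below 0, against 51.7% of all genes, with a median of -0.24. Pole read 4.34, 4.11 and 4.81 in pregnant liver and 4.90, 5.35 and 4.79 in virgin liver, and the groups overlapped because of pool 3. Its log2 change of -0.60 (SE 0.17) passed (adjusted p = 0.0358), but it was -0.90 in pools 1 and 2, and 0.01 in pool 3. The call was lost without pregnant liver pool 1 (adjusted p = 0.0989) or 2 (0.139), without virgin liver pool 1 (0.0544) or 2 (0.148), and with the 6 liver arrays alone (0.106). Rfc3 changed by -0.45 (adjusted p = 0.0614) and Pola1, the catalytic subunit of polymerase alpha, by -0.40 (adjusted p = 0.0707), both with groups apart. Pcna changed by -0.16 (adjusted p = 0.435). Prim1 changed by -0.38 (adjusted p = 0.242), while its second probe set fell by 0.58 and was called in the fit of all probe sets (adjusted p = 0.00787). The lagging strand enzymes Fen1 and Lig1 changed by 0.17 and -0.08 and did not pass.

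In nucleotide supply, Tk1 read 7.77, 7.76 and 7.89 in pregnant liver and 8.46, 8.85 and 8.55 in virgin liver. The groups did not overlap and the pregnant pools were tight. Its log2 change was -0.82 (SE 0.17, adjusted p = 0.00455), -0.89 in pools 1 and 2, and -0.66 in pool 3. Rrm1 changed by -0.28 (adjusted p = 0.123), whereas Rrm2 changed by 0.39 (adjusted p = 0.402) with virgin pools that spread by an SD of 0.68. Dut changed by -0.24 (adjusted p = 0.212), while its second probe set fell by 0.62 and was called in the fit of all probe sets (adjusted p = 0.00541).

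Of the 5 genes of S phase entry and checkpoint, 1 was called in liver, Ccne2. It read 5.15, 4.99 and 4.77 in pregnant liver and 4.12, 4.21 and 3.75 in virgin liver, and all pregnant pools stood above the virgin ones. Its log2 change was 0.94 (SE 0.17, adjusted p = 0.00223), 0.90 in pools 1 and 2, and 1.02 in pool 3. Ccne1 read 6.37, 6.30 and 5.97 in pregnant liver and 5.91, 5.80 and 5.93 in virgin liver, with pool 3 almost equal in the 2 states. Its change of 0.33 (SE 0.11) missed the threshold (adjusted p = 0.0577), was 0.48 in pools 1 and 2 and 0.04 in pool 3, and passed when both arrays of pool 3 were left out (adjusted p = 0.013). A second probe set of Ccne1 was higher by 0.68 and was called (adjusted p = 0.00195 in the fit of all probe sets). E2f1, an activating E2F factor, changed by 0.33 with groups apart (adjusted p = 0.0738), whereas Chek1 changed by 0.08 and Uhrf1 by -0.25 with groups that overlapped.

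**Figure D4:**
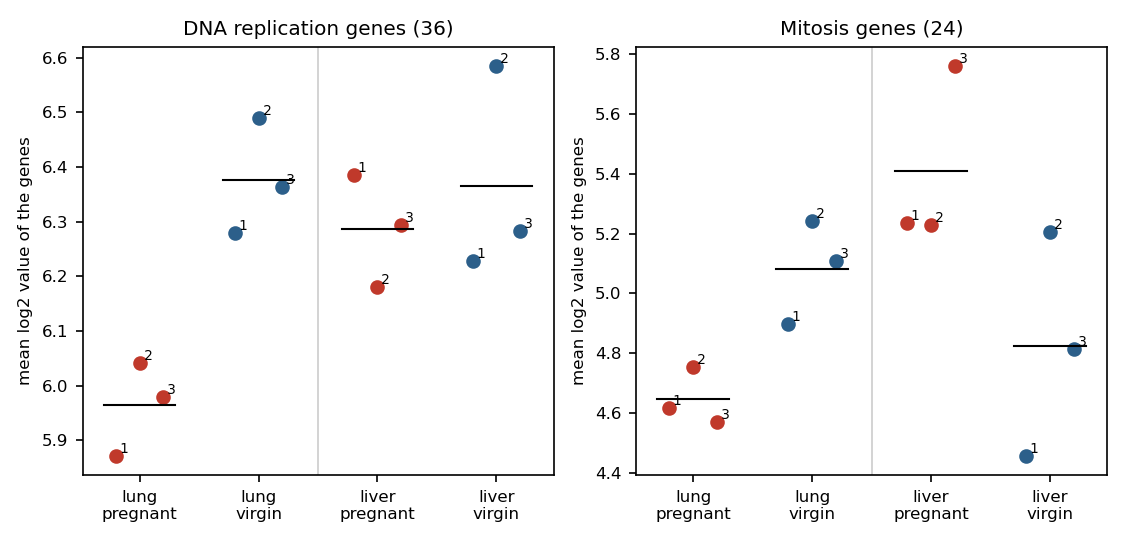
Mean log2 value on each array over the 36 replication genes (left) and over 24 mitosis genes (right), with red points for pregnant and blue for virgin mice, numbers for the pool and black lines for group means. Replication values are lower in pregnant lung without overlap and overlap in liver, where virgin pool 2 is the highest, and mitosis values are higher in pregnant liver.

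The mean over the 36 genes summarises each array. It was 5.87, 6.04 and 5.98 in pregnant lung and 6.28, 6.49 and 6.36 in virgin lung, with no overlap. In liver it was 6.38, 6.18 and 6.29 in pregnant mice and 6.23, 6.58 and 6.28 in virgin mice, and the groups overlapped. Virgin liver pool 2 stood apart, with the highest value of its group in 28 of 36 members. Without it the median change of the members in liver was 0.01.

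Related genes in liver went in both directions as well. Of 48 further replication genes 10 were called, against 13.6% of all genes, with a median of -0.06. Of these 3 were higher and 7 lower, against 6.02% and 7.62% of all genes. Rnaseh2a, the catalytic subunit of ribonuclease H2, fell by 0.85 (adjusted p = 0.00183), Pold2 of polymerase delta by 0.69 (adjusted p = 0.0022) and Rpa3 by 0.62 (adjusted p = 0.00456). Dbf4, the activator of the kinase Cdc7, rose by 0.83 (adjusted p = 0.0394). Of 33 other G1/S regulators 6 rose and 5 fell, against 6.02% and 7.62% of all genes. Among those that rose were Cdkn1a, which encodes the inhibitor p21 (1.26, adjusted p = 0.0422), Ccna2, cyclin A2 (1.06, adjusted p = 0.00664), and E2f2 (0.66, adjusted p = 0.00573). Ccnd1, cyclin D1, was among those that fell (-0.62, adjusted p = 0.00743). Of 24 mitosis genes 8 rose and 0 fell, with a median of 0.59, where 6.02% of all genes rose. Ccnb2, cyclin B2, rose by 1.36 (adjusted p = 0.0234) and Cdc20, an activator of the anaphase-promoting complex, by 1.03 (adjusted p = 0.0392), and Birc5 and Hmmr were among the other 6. Several of these calls were lost when any of several liver arrays was left out. Of the 6 fits without 1 liver array, Dbf4, Cdkn1a and Birc5 passed in 2 and Ccnb2 and Cdc20 in 3, with highest adjusted p-values of 0.155 (Dbf4), 0.163 (Cdkn1a), 0.162 (Birc5) and 0.155 (Cdc20) without virgin pool 1 and 0.0801 (Ccnb2) without pregnant pool 3. With both liver arrays of pool 3 left out, 1 mitosis gene was called, and 3 were called without pregnant pool 3, virgin pool 1 or virgin pool 3.

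A few markers of blood precursors were called in liver, where 6.02% of all genes were called higher and 7.62% lower. Of 8 erythroid markers measured, 2 rose, Tfrc by 1.51 and Alas2 by 1.16. Of the other 6, 3 had estimates below 0, down to -0.35, and the median of the 8 was 0.06. The mean of the list was between 5.72 and 5.74 on pregnant liver arrays and between 5.36 and 5.43 on virgin ones. Of 8 neutrophil precursor markers, 2 rose, Ngp by 1.89 and Prtn3 by 1.16, with a median of 0.49 and 1 estimate below 0, and the mean was between 5.11 and 5.41 on pregnant arrays, against 4.53 to 4.59 on virgin ones. In pregnant liver 3 of the erythroid and 2 of the neutrophil precursor markers were under the median of all probe sets. Of 5 endothelial markers Vwf rose by 2.48 and Kdr fell by 0.30, of 3 pancreas markers Cpa1 rose by 0.39, and the lymphocyte, natural killer cell, macrophage, fibroblast, bile duct, and decidua and trophoblast lists had no call. Of the 6 fits without 1 liver array Ngp passed in 3 and Kdr and Cpa1 in 1, with adjusted p-values up to 0.0674 (Ngp, without virgin pool 3), 0.15 (Kdr, without pregnant pool 2) and 0.132 (Cpa1, without pregnant pool 1). The part of these cells in the liver values of the replication genes was not tested.

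The third comparison tested whether the change with pregnancy differed between the tissues, as the lung change minus the liver change. It was called in 6 of 36 members, against 6.71% of all genes tested. Lower in this difference were 5, Cdc6, Cdt1, Ccne2, Ccne1 and Gins2, against 3.37% of all genes, and higher was 1, Gmnn, against 3.34%. Thus the loader pair Cdc6 and Cdt1 and both E-type cyclins stood lower in the lung change than in the liver change, and the Cdt1 inhibitor stood higher.

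For Cdc6 the log2 change was -1.23 in lung and 0.46 in liver, a difference of -1.69 (SE 0.22, adjusted p = 0.000387). For Cdt1 it was -0.55 in lung and 0.92 in liver, a difference of -1.47 (SE 0.29, adjusted p = 0.0066). Gmnn ran the other way, with -0.09 in lung and -1.03 in liver, a difference of 0.94 (SE 0.17, adjusted p = 0.00499). None of the helicase subunits was called, the nearest being Mcm5 with a difference of -1.12 (adjusted p = 0.0663). Mcm5 did pass with suffix probe sets left out, which reads its second probe set (-1.19, adjusted p = 0.0296), with array weights (adjusted p = 0.0439) and with quantile normalization over all arrays (adjusted p = 0.0437).

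For Ccne2 the changes were -0.28 in lung and 0.94 in liver, a difference of -1.22 (SE 0.25, adjusted p = 0.00802). For Ccne1 they were -0.41 and 0.33, a difference of -0.74 (SE 0.15, adjusted p = 0.00938), which was no longer called when probe sets with a shared-sequence suffix were left out (-0.61, adjusted p = 0.0522). Cdc6, Cdt1, Gmnn, Ccne1 and Ccne2 passed in all 12 fits without 1 array. For Gins2 the changes were -0.50 and 0.00, a difference of -0.50 (SE 0.14, adjusted p = 0.0425), and it passed in 1 of the 12, the fit without virgin liver pool 2, with a highest adjusted p of 0.103 without virgin lung pool 2.

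**Figure D5:**
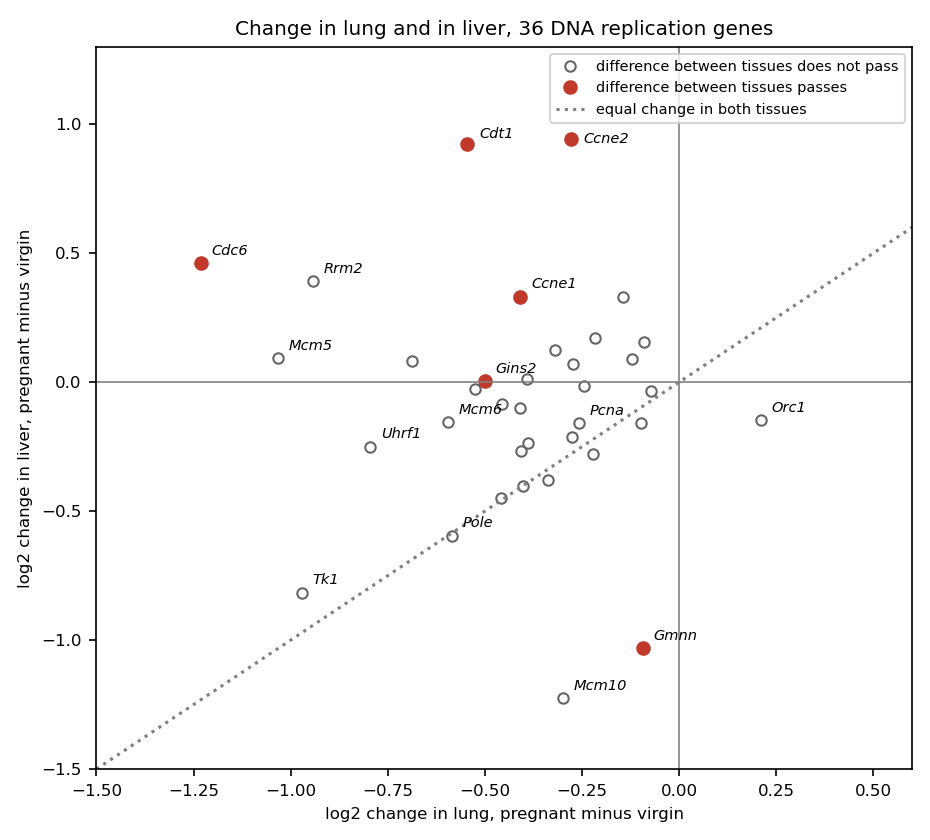
Log2 change with pregnancy in lung (horizontal) and in liver (vertical) for the 36 genes, with filled points where the difference between the tissues was called and a dotted line where both changes are equal. Cdc6, Cdt1, Ccne1, Ccne2 and Gins2 lie above the line and Gmnn below it, and Tk1 and Pole lie near it with both changes below 0.

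Tk1 was called lower in both tissues, and its difference of -0.15 had an interval of -0.66 to 0.35 (adjusted p = 0.784), which does not show that the changes were equal. Pole had a difference of 0.01 (interval -0.52 to 0.54), and Pola1 and Rfc3 had differences of 0.00 and -0.01. Rrm2, with -1.33 (SE 0.39, adjusted p = 0.0556), and Mcm10, with 0.93 (SE 0.30, adjusted p = 0.0911), missed the threshold. Another probe set of Rrm2 differed by -1.34 between the tissues and passed in the fit of all probe sets (adjusted p = 0.0126). A brighter further one differed by -0.79 and did not pass there (adjusted p = 0.138). No gene of DNA synthesis was called, and the differences of the 10 ranged from -0.34 to 0.06.

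Of the further replication genes 5 of 48 were called in the difference, against 6.71% of all genes tested. Among them were Asf1b, a histone chaperone (-0.86, adjusted p = 0.00599), Tipin of the fork protection complex (-0.71, adjusted p = 0.0347), Orc5 (0.56, adjusted p = 0.0321) and Rnaseh2a (0.78, adjusted p = 0.0445). Of the other G1/S regulators 7 of 33 were called, against the same 6.71% of all genes. The largest size was in Ccna2, which changed by -0.93 in lung and 1.06 in liver, a difference of -1.99 (adjusted p = 0.00191). Of the mitosis genes 8 of 24 were called, all lower, against 3.37% of all genes called lower, with a median difference of -0.95. Of the 12 fits without 1 array, Tipin, Orc5 and Rnaseh2a passed in 4 each, with adjusted p-values up to 0.0888, 0.0848 and 0.11, the highest without pregnant lung pool 1, pregnant lung pool 2 and virgin lung pool 3 in that order, and Asf1b and Ccna2 passed in all 12.

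In virgin mice, the baseline, 21 of 36 members differed between lung and liver, against 68.7% of all genes tested, 13 higher and 8 lower in lung. On the chosen probe sets Tk1 and Mcm10 stood apart from the rest. Tk1 averaged 5.32 ± 0.21 in virgin lung and 8.62 ± 0.20 in virgin liver (SD, n = 3 each), a log2 difference of -3.31 (adjusted p = 2.13e-10). Mcm10 averaged 5.58 ± 0.28 in virgin lung and 9.11 ± 0.17 in virgin liver, a difference of -3.53 (adjusted p = 1.82e-09). Further Mcm10 probe sets averaged 3.32 and 2.56 in virgin lung, against 4.83 and 2.65 in virgin liver, so this size rests on the brightest one. In pregnant liver the chosen probe sets of Tk1 and Mcm10 averaged 7.81 and 7.89, below virgin liver, and every liver array still read higher than every lung array. On the higher side, Cdc6 stood 1.70 above virgin liver, Mcm4 1.33 and Rrm2 1.22 (adjusted p of 2.27e-07, 1.58e-06 and 0.00117). Further Rrm2 probe sets averaged 4.85 and 4.76 in virgin lung, against 4.78 and 3.76 in virgin liver.

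Further probe sets read the same genes. Of the 36 members 28 had more than 1, with 46 further probe sets in all, and 8 had a single one. In lung 42 of the 46 were below 0, 5 had the opposite sign to the one that stood for the gene, and 1 was called in a fit of all probe sets with a single symbol, against 0.323% of them. In liver 16 had the opposite sign and 5 were called, against 9.99% of all, 4 of them for genes whose chosen probe set was not. In the difference between tissues 3 were called, against 4.3% of all. Of the 5 called in liver 1 had the opposite sign, a probe set of Tyms with mean levels of 2.77 in pregnant and 2.41 in virgin liver that rose by 0.36 (adjusted p = 0.0469), where the chosen one changed by -0.03. The other called ones, of Mcm10, Prim1, Dut and Ccne1, had the sign of the chosen probe set.

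By the correlation with the mean of the 36 genes over the 12 arrays, after the mean of each tissue was taken out, the closest other genes were Lrrc17 (Pearson r = 0.956), Sox21 (0.949), Col14a1 (0.914), Cenpq (0.909) and Dscc1 (0.906). These values describe likeness over arrays that share groups, since pregnancy and tissue are the same for all 3 arrays of a group. Lrrc17 changed by -0.77 in lung (adjusted p = 0.0187) and -0.05 in liver (adjusted p = 0.846). Dscc1, a subunit of an alternative clamp loader, changed by -0.55 in lung (adjusted p = 0.237) and -0.18 in liver (adjusted p = 0.581).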

How the data were processed

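Per the labels' protocols, RNA came from frozen, ground tissue, and each array took a pool of 2 mice. What the authors deposited are log2 expression levels made with RMA of the affy package, per the submitters' processing notes, which give no versions. Which arrays were normalized together is not given in the sources used here. The scanner files were not used.

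The 64 control probe sets were left out. Of the other 45037, 34945 had a single gene symbol, 932 several and 9160 none, and the last 2 kinds were not tested. The probe set with the highest mean over 12 arrays stood for its gene (18193 genes), and means of 4 groups were fitted with limma 3.58.1 in R 4.3.3 (8 residual and 5.6 prior degrees of freedom). The 95% intervals come from this fit. Calls are at a Benjamini-Hochberg adjusted p under 0.05 over all genes. Promoters and their motifs were read from a RefSeq table of GRCm38.p6.

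Pool numbers recur in the groups, and the sources used here do not say whether they pair samples. The correlation of same-numbered arrays' deviations ran from -0.11 to 0.108, which cannot settle this with so few arrays a group. The fit was checked on simulated arrays with seeded changes and independent noise for each gene and array. The check required recovery only of the largest seeded changes, larger than any member's change with pregnancy. It does not cover shifts that many genes of a pool share. The members, roles and other gene lists (229 genes, 213 measured) were chosen with earlier results of these data known. Named are all called members where a comparison called 8 or fewer, the 2 members of each role with the smallest p in each tissue, and of each other list up to 4 called genes with the largest change, or 2 with the smallest p. Other members were named to complete their role. Alternatives are given in the closing section.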

Additional observations from a re-analysis of the deposited data

Results flagged for a closer look

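In 6 members the change with pregnancy differed between lung and liver by a test of the difference itself (lung change minus liver change, limma, adjusted over all genes, 6.71% of which were called). Cdc6 differed by -1.69 on the log2 scale (-1.23 in lung, 0.46 in liver), and Cdt1 by -1.47 (-0.55 and 0.92). Ccne2 differed by -1.22 (-0.28 and 0.94), Ccne1 by -0.74 (-0.41 and 0.33) and Gins2 by -0.50 (-0.50 and 0.00). Gmnn differed by 0.94 (-0.09 in lung, -1.03 in liver). The Gins2 call held in only 1 of the 12 fits without 1 array. It was also lost in several other settings, such as centring on the median (limma, adjusted p = 0.0648). The Ccne1 call was lost without suffix probe sets (adjusted p = 0.0522), and its second probe set changed by 0.08 in lung. Cdc6 was below the median of all probe sets in pregnant lung and in both liver groups, and Ccne2 in both lung groups and in virgin liver. Groups of 3 arrays are too small for a test of single outlying arrays.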

How the results depend on the processing

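No called value changed direction under any alternative that was run. In the lung, 7 members instead of 3 were called with array weights and 1 at an adjusted p under 0.01, and 1 to 5 when single arrays were left out (1 without virgin lung pool 2 or virgin lung pool 3, 5 without virgin liver pool 1). In the liver, 11 instead of 6 were called at an adjusted p under 0.1, and 5 to 10 when single arrays were left out (10 without pregnant liver pool 3). For the difference between tissues the count of 6 ranged from 5 to 9 without single arrays and from 4 (without suffix probe sets) to 9 (at an adjusted p under 0.1) otherwise. For the virgin tissues the count of 21 ranged from 17 to 22 without single arrays and from 15 (with the replicate block) to 21 otherwise. The median change of the members was -0.40 to -0.33 in lung and -0.13 to 0.02 in liver without single arrays, and -0.41 to -0.31 in lung and -0.12 to -0.06 in liver otherwise. Further replication genes called in liver (10) were 6 with the liver arrays alone, 5 at 0.01, and 6 to 9 without single arrays. Mitosis genes called in liver (8) were 3 with the liver arrays alone, 5 without suffix probe sets, with a variance trend or with array weights, 1 without both arrays of pool 3 or at 0.01, and 3 to 12 without single arrays. Mitosis genes called in lung (1) were 3 with the lung arrays alone and 0 with the mean of all probe sets, all probe sets, centring on the median, either quantile normalization (all arrays, or each tissue by itself), or at 0.01, and 0 to 1 without single arrays. The cause of these shifts was not tested.

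With the replicate block, pool number within tissue, 2 members were called in lung, 6 in liver and 5 in the difference, and 6 further replication genes in liver. Whether the numbers mark pairs is not known. Some arrays correlated best with their own number and others did not, which cannot decide it. Under the block Gins2 lost its call in lung (adjusted p = 0.0808), Pole lost its call in liver (0.074) and Cdc6 passed in liver (0.011). The difference could not be fitted with the arrays of 1 tissue alone. Over the named genes, 2029 values kept direction and side of the threshold, 86 gained the call and 117 lost it, and without single arrays 1696, 28 and 148. Centring and quantile normalization moved the median of all genes by far less than the changes reported. Group means below the median of all probe sets limit Tyms and Uhrf1 in all groups, Cdc6 in pregnant lung and in liver, Tk1 and Chek1 in pregnant lung, Pole in both pregnant groups, and Ccne2 in all but pregnant liver.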

Other observations

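Single pools ran high or low across many members at once. Virgin liver pool 2 had the highest value of its group in 28 of 36 members and virgin lung pool 2 in 21, whereas pregnant lung pool 1 had the lowest in 22 and pregnant liver pool 2 also in 22. On virgin liver pool 2 the mean of the mitosis genes was 5.20, against 4.46 and 4.82 on the other virgin liver arrays, and that of the further replication genes was 6.49, against 6.28 and 6.33. On pregnant liver pool 3, one of the arrays without signal for labelling controls, the mitosis mean was 5.76, against 5.24 and 5.23 on the other pregnant liver arrays, while the mean of the 36 members was 6.29, between the other 2.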
